A study of Mus musculus with 8 samples.

Results

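The 10 genes described here encode the receptor-proximal part of interleukin-1 (IL-1) signalling, from the adaptor MyD88 through the IRAK kinases to the TAK1 and TPL2 kinases. They were chosen by name (*Myd88*, *Irak1*, *Irak2*, *Irak3*, *Irak4*, *Tollip*, *Map3k7*, *Tab1*, *Tab2* and *Map3k8*) among the 54658 gene symbols of the count table. All 10 were found, and all 10 were among the 14404 genes with enough counts to be tested, that is, with a CPM (reads of a gene scaled to the size of its library) over 1 in 4 samples or more. RNA-Seq covered primary articular chondrocytes taken from the femoral heads of wild-type mice of 3 weeks of age. In 4 samples the cells received IL-1β at 1 ng/mL for 24 h, and in the other 4 samples they received vehicle. The counts of a sample summed to between 10992355 and 17456063. The labels do not say whether the samples of a group came from separate mice or cultures, so the p-values refer to the spread between these samples, which may be technical. Cultured cells from young femoral heads are a model of articular cartilage without its matrix or its neighbouring tissues.

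When IL-1β binds its receptor, the adaptor MyD88 joins the receptor complex and gathers the IRAK proteins around it. IRAK4 and IRAK1 are the active kinases of this complex, IRAK2 is a related protein that prolongs the signal, and IRAK3, also called IRAK-M, restrains it. The signal then passes through the ubiquitin ligase TRAF6 to the kinase TAK1 (*Map3k7*) and its partners TAB1 and TAB2, which activate the NF-κB and MAP kinase pathways. TPL2 (*Map3k8*) is a further kinase at this level, which acts on the kinases upstream of ERK. In cartilage, IL-1 signalling is known for raising matrix-degrading enzymes and inflammatory mediators.

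After IL-1β, *Irak3* rose 4.74-fold and *Map3k8* rose 2.52-fold, *Irak2* rose 1.79-fold, and *Irak1* and *Myd88* rose by far less, 1.13-fold and 1.09-fold, the last a call that did not hold under every alternative. *Irak4*, *Tollip*, *Map3k7*, *Tab1* and *Tab2* had log2 fold changes between -0.08 and 0.01, and none of these passed the test. In all, 5 of the 10 genes were higher after IL-1β and 0 were lower at an adjusted p under 0.05 (edgeR's quasi-likelihood test, Benjamini-Hochberg over all genes tested). The background was 40.2% of all genes tested, with 20.4% higher and 19.8% lower. With a log2 fold change above 1 or below -1 as a further condition, 2 of the 10 were called, *Irak3* and *Map3k8*. The background at this threshold for a differentially expressed gene (DEG) was 5.21%, with 2.86% higher and 2.35% lower. The threshold is the change of more than 2-fold named in the RNA-Seq methods. The paper's results use a log2 fold change above 2 instead. Of the 10 genes, only *Irak3* (2.24) lay past that value, and *Map3k8* (1.33) did not. The median log2 fold change of the 10 genes was 0.07 and that of all genes tested was -0.0012.

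**Figure D1:**
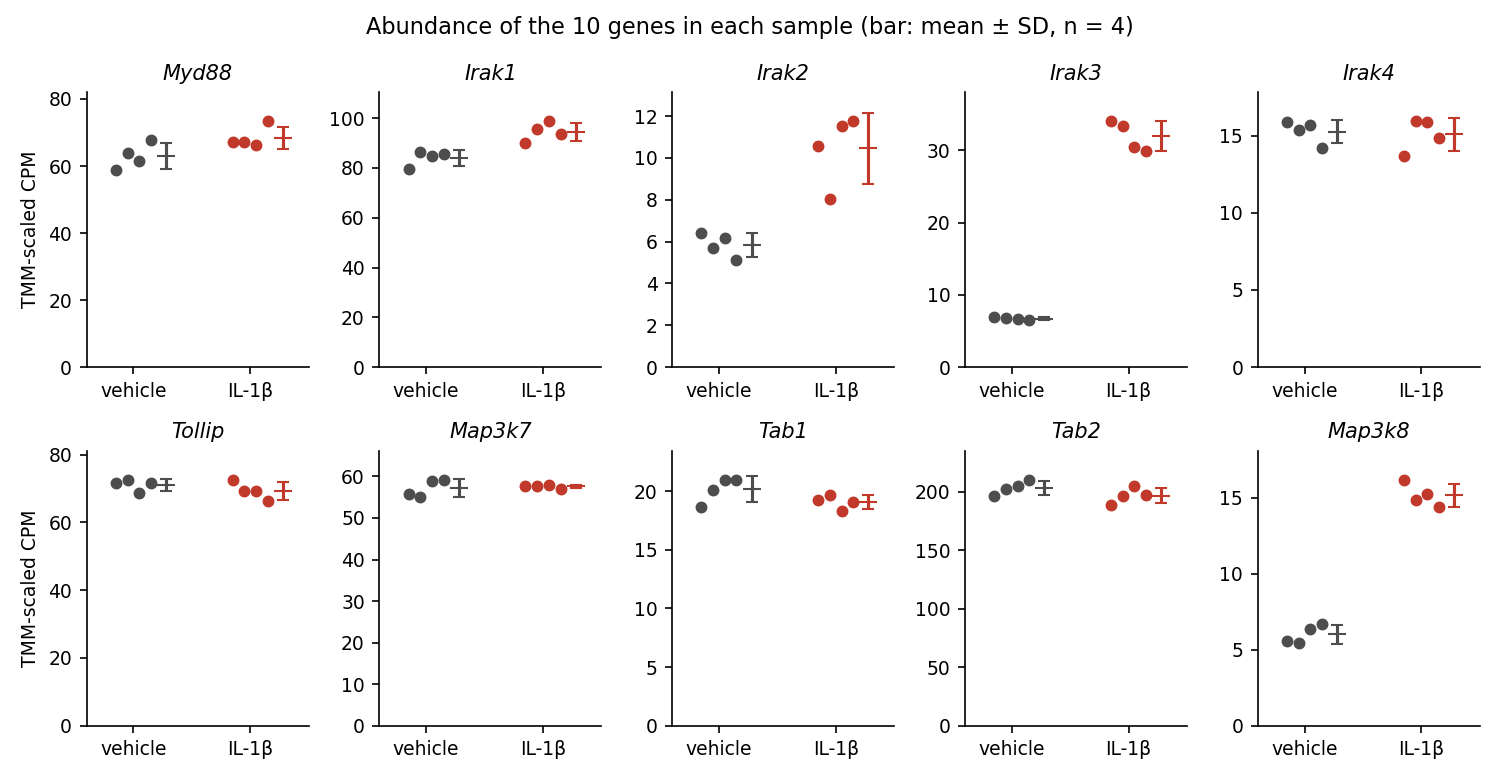
TMM-scaled CPM (vertical axes, from 0, a scale per gene) of the 10 genes in the 4 vehicle (grey) and 4 IL-1β (red) samples, with the mean ± SD beside the points. The IL-1β samples of *Irak3* lie at 29.9 to 34.0 CPM and its vehicle samples at 6.46 to 6.89 CPM, while the groups of *Map3k7* overlap.

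The sequences below show where the seed of miR-146a-5p, the microRNA at the centre of the study, could pair with transcripts of this group. miR-146a is known to target *Irak1* and *Traf6*. The mature sequence is from RefSeq (GRCm38.p6, chr11:43374435-43374456, minus strand), with the seed, positions 2 to 8, in capitals. The sites were read in each gene's longest protein-coding transcript of GENCODE vM21 (GRCm38), downstream of the stop codon, with the bases that match the seed and the A that follows it in capitals. All are 8mers, the longest class of site searched, and these are the only 8mers found in the 10 genes.
miR-146a-5p: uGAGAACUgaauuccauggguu
*Irak1*, chrX:74015382-74015411, minus strand: tcagaggtcaaAGTTCTCAtgcttggaagt
*Irak1*, chrX:74015366-74015395, minus strand: tcatgcttggaAGTTCTCAtagtgtgcaaa
*Irak2*, chr6:113694255-113694284, plus strand: gtgtctccgcaAGTTCTCAagttcaggact

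The *Irak1* sites lie at nucleotides 40 to 47 and 56 to 63 of a 3′ UTR of 1526 nucleotides, so that they are near neighbours close to the stop codon. The *Irak2* site lies at nucleotides 486 to 493 of 1246. Counting also the shorter 7mers (positions 2 to 8, or positions 2 to 7 followed by A), *Irak1* and *Irak2* had 3 sites each, *Tollip* had 2 and *Map3k8* had 1, and the other 6 genes had none. The share with a site was thus 4 of 10 genes, against 20.8% of the 11917 genes tested that had a 3′ UTR, and the share with an 8mer was 2 of 10, against 4.64%. *Traf6*, which is not among the 10 genes, had 4 sites, all 8mers. A match describes these letters only. Of the 4 genes with a site, 3 passed the test (*Irak1*, *Irak2* and *Map3k8*), and of the 6 without a site, 2 did, *Myd88* and *Irak3*, the gene that rose most. With 40.2% of all genes called, these counts are too small to set the genes with a site apart.

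*Irak3* encodes IRAK-M, an IRAK protein without kinase activity, which is best known as an inhibitor of Toll-like and IL-1 receptor signalling in macrophages. It lies on chromosome 10 from 120141648 to 120202130 (minus strand). Its abundance was 34.0, 33.4, 30.5 and 29.9 CPM in IL-1β replicates 1 to 4 and 6.89, 6.78, 6.73 and 6.46 CPM in vehicle replicates 1 to 4. The groups were far apart, and the vehicle samples were close together. Vehicle-treated cells thus averaged 6.71 ± 0.181 and IL-1β-treated cells 32.0 ± 2.06 CPM (SD, n = 4), which gives a log2 fold change of 2.24 (SE 0.0759, 95% interval 2.09 to 2.4, adjusted p = 4.79e-20 from edgeR). Ordered by log2 fold change, *Irak3* stood at rank 96 of the 14404 genes tested. Of its exon bases, 5.98% overlap genes on the opposite strand, of which *Tmbim4* rose slightly (log2 fold change 0.19, adjusted p = 0.00123 from edgeR) and *Gm47009* had at most 5 reads in a sample. Whether reads were assigned by strand is not stated.

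Because *Irak3* is best known from macrophages, markers of these cells were examined beside it. Of 12 macrophage markers, 6 had at most 3 reads in every sample, and *C1qb* had 0 reads in all. *Ptprc*, the gene of the pan-leukocyte protein CD45, had 0 to 6 reads with IL-1β and 0 to 3 with vehicle, and *Adgre1*, which encodes F4/80, had at most 3 reads. *Csf1r*, the receptor of macrophage colony-stimulating factor, was present in every sample, with 7 to 19 reads with IL-1β and 7 to 17 with vehicle, and *Mrc1* had 4 to 6 and 0 to 12 reads. The 3 markers that were tested were *Cd14* (log2 fold change 1.86) and *Cd68* (0.67), which rose, and *Lyz2* (-0.60), which fell. The summed level of the 12 markers was 30.5 to 34.2 CPM with IL-1β and 14.9 to 18.0 CPM with vehicle, so that it moved with the treatment, and *Cd14* and *Cd68* held most of it. The 8 chondrocyte markers, among them *Col2a1*, *Acan* and *Sox9*, were abundant in every sample, and all 8 fell after IL-1β, from a summed 16137 to 16751 CPM with vehicle to 4190 to 4602 CPM. In bulk RNA, fewer cells of a type and less RNA per cell cannot be told apart. Of 5 fibroblast markers, 3 were tested and 2 rose, *Pdpn* (2.26) and *Pdgfra* (0.58), where 20.4% of all genes tested were higher. *Col1a1*, the most abundant marker of this list, did not pass the test (-0.10, adjusted p = 0.076 from edgeR). The 4 endothelial and 4 erythroid markers were too low to be tested. The part of such cells in the levels of *Irak3* was not tested.

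*Irak2* encodes the IRAK protein that sustains the later phase of signalling (chromosome 6, 113638467 to 113695026, plus strand). It had 10.6, 8.03, 11.5 and 11.7 CPM in IL-1β replicates 1 to 4 and 6.42, 5.68, 6.15 and 5.14 CPM in vehicle replicates 1 to 4. The groups were separate, with IL-1β replicate 2 the nearest to the vehicle group. From a vehicle mean of 5.85 ± 0.563, *Irak2* rose to 10.5 ± 1.70 CPM (SD, n = 4), for a log2 fold change of 0.84 (SE 0.12, 95% interval 0.59 to 1.09, adjusted p = 1.31e-06 from edgeR). It stayed under the DEG threshold, which its interval includes. *Irak2* had the fewest reads of the 10 genes, 78 to 193 per sample. Of its exon bases, 4.44% overlap *Gm43963* on the opposite strand, which had at most 7 reads in a sample.

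*Irak1* encodes the kinase that leaves the receptor complex to meet TRAF6 (chromosome X, 74013914 to 74023918, minus strand). It had 89.9, 95.5, 98.6 and 93.4 CPM in IL-1β replicates 1 to 4 and 79.4, 86.4, 84.8 and 85.5 CPM in vehicle replicates 1 to 4. The groups did not overlap, but the gap between them was small, and vehicle replicate 1 was the lowest sample. The log2 fold change was 0.17 (SE 0.0386, 95% interval 0.09 to 0.25, adjusted p = 0.000664 from edgeR), the vehicle and IL-1β means being 84.0 ± 3.18 and 94.3 ± 3.68 CPM (SD, n = 4). Of the exon bases of *Irak1*, 2.99% overlap the microRNA genes *Mir718* and *Mir5132* on the same strand, which had 0 reads in every sample. The effect of this overlap on the counts of *Irak1* was not tested. *Irak1*, with its pair of neighbouring 8mers for miR-146a-5p shown above, was thus slightly higher after IL-1β. The counts measure the amount of transcript and not translation.

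*Irak4* encodes the kinase that MyD88 recruits before the others (chromosome 15, 94543643 to 94581815, plus strand). Its abundance was 13.7, 15.9, 15.9 and 14.9 CPM in the IL-1β samples and 15.9, 15.4, 15.7 and 14.2 CPM in the vehicle samples, in the order of the replicates. The groups covered the same range. The log2 fold change was -0.01 (SE 0.0777, 95% interval -0.17 to 0.15, adjusted p = 0.932 from edgeR), which corresponds to a fold between 0.889 and 1.11. Of its exon bases, 7.87% overlap *Twf1* on the opposite strand (log2 fold change -0.02, adjusted p = 0.825 from edgeR).

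*Myd88* encodes the adaptor itself (chromosome 9, 119335934 to 119341411, minus strand). It had 67.1, 67.2, 66.3 and 73.3 CPM in IL-1β replicates 1 to 4 and 58.7, 63.8, 61.4 and 67.8 CPM in vehicle replicates 1 to 4. The groups overlapped, since vehicle replicate 4 lay above 3 of the IL-1β samples, and IL-1β replicate 4 was the highest of all. The log2 fold change was 0.12 (SE 0.0455, 95% interval 0.03 to 0.22, adjusted p = 0.0331 from edgeR), the vehicle and IL-1β means being 62.9 ± 3.84 and 68.5 ± 3.24 CPM (SD, n = 4). This call was lost with DESeq2 in place of edgeR (adjusted p = 0.0697). It was also lost in edgeR without IL-1β replicate 4 (log2 fold change 0.09, adjusted p = 0.135), without vehicle replicate 1 (0.09, adjusted p = 0.15), without vehicle replicate 2 (0.13, adjusted p = 0.051) and without vehicle replicate 3 (0.11, adjusted p = 0.098). Of the exon bases of *Myd88*, 11.3% overlap *Acaa1a* on the opposite strand, which rose with a log2 fold change of 0.38 (adjusted p = 1.26e-07 from edgeR). The part of *Acaa1a* in the counts of *Myd88* was not tested.

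**Figure D2:**
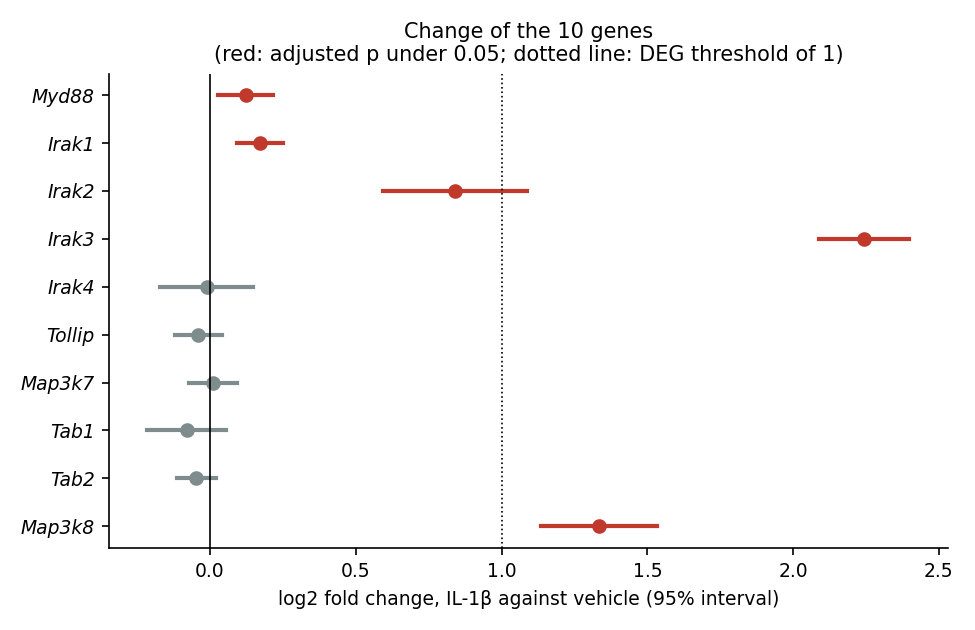
Log2 fold change of IL-1β against vehicle (horizontal axis) for the 10 genes, with the 95% interval as a line, an adjusted p under 0.05 in red and the DEG threshold of 1 dotted. *Irak3* and *Map3k8* lie beyond the threshold with their whole intervals, *Irak2* straddles it, and 5 genes have intervals that include 0.

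*Tollip* encodes a protein that binds the IL-1 receptor complex and IRAK1 and dampens signalling (chromosome 7, 141874813 to 141918507, minus strand). It had 72.5, 69.2, 69.1 and 66.2 CPM in the IL-1β samples and 71.5, 72.5, 68.5 and 71.7 CPM in the vehicle samples, in the order of the replicates. The groups overlapped, and the lowest sample was IL-1β replicate 4. The log2 fold change was -0.04 (SE 0.0396, 95% interval -0.12 to 0.04, adjusted p = 0.472 from edgeR). The genes that encode restraining proteins of the receptor complex thus differed from each other in these cells, with *Irak3* higher after IL-1β and *Tollip* not past the test.

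*Map3k7* (chromosome 4, 31964097 to 32023467, plus strand) encodes TAK1, the kinase on which the signal converges. Its IL-1β samples had 57.7, 57.6, 58.0 and 57.0 CPM and its vehicle samples had 55.9, 55.1, 58.9 and 59.1 CPM, so that all 4 IL-1β samples lay within the range of the vehicle samples. The log2 fold change was 0.01 (SE 0.0403, 95% interval -0.07 to 0.09, adjusted p = 0.869 from edgeR), which corresponds to a fold between 0.951 and 1.07.

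*Tab1* (chromosome 15, 80133127 to 80161707, plus strand) encodes an activating partner of TAK1. Its IL-1β samples held 19.3, 19.7, 18.3 and 19.1 CPM, and its vehicle samples 18.6, 20.1, 21.0 and 21.0 CPM. *Tab2* (chromosome 10, 7905653 to 7956230, minus strand) encodes the partner that binds ubiquitin chains. Its IL-1β samples held 188, 196, 204 and 197 CPM, and its vehicle samples 196, 202, 205 and 209.9 CPM. In both genes the groups overlapped, and the mean was slightly lower after IL-1β. The log2 fold change was -0.08 for *Tab1* (SE 0.0659, 95% interval -0.22 to 0.06, adjusted p = 0.367 from edgeR). It was -0.05 for *Tab2* (SE 0.0325, 95% interval -0.11 to 0.02, adjusted p = 0.274 from edgeR). The 3 genes of the TAK1 complex therefore had intervals that include 0 and leave room for changes of at most 0.22 on the log2 scale.

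*Map3k8* encodes TPL2 (chromosome 18, 4331327 to 4353015, minus strand). It had 16.2, 14.8, 15.3 and 14.4 CPM in IL-1β replicates 1 to 4 and 5.56, 5.45, 6.37 and 6.73 CPM in vehicle replicates 1 to 4. The lowest IL-1β sample, replicate 4, was far above the highest vehicle sample, also replicate 4. From a vehicle mean of 6.02 ± 0.622, *Map3k8* rose to 15.2 ± 0.771 CPM (SD, n = 4), for a log2 fold change of 1.33 (SE 0.0975, 95% interval 1.13 to 1.53, adjusted p = 2.79e-12 from edgeR). No exon base of *Map3k8*, *Map3k7*, *Tab1*, *Tab2* or *Tollip* overlaps another annotated gene. Across the 10 genes, the groups did not overlap in 4, all higher after IL-1β (*Irak1*, *Irak2*, *Irak3* and *Map3k8*), against a background of 36.8% of all genes tested, or 18.7% with IL-1β higher.

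Levels of different genes were compared per length, as TMM-scaled CPM per kb of exon. With vehicle, *Tab2* had the highest level, 33.1 ± 0.951 CPM per kb (SD, n = 4), which lay above 91.5% of the genes tested. It was followed by *Myd88* (24.4), *Irak1* (17.8), *Tollip* (14.0), *Map3k7* (8.91), *Tab1* (6.0), *Irak4* (3.04), *Irak3* (1.83), *Map3k8* (1.34) and *Irak2* (1.33 CPM per kb). Only *Map3k8* and *Irak2*, at the bottom of this order, had overlapping ranges, and every other neighbour was separated in all 4 samples. With IL-1β, the order of the 5 highest genes was as with vehicle, with *Tab2* at 32.0 ± 1.07 CPM per kb. *Irak3* moved up to 8.69 ± 0.56 CPM per kb, where its range overlapped that of *Map3k7* (8.96 ± 0.0677), and *Map3k8* moved above *Irak4* (3.37 against 3.00 CPM per kb). *Irak2* remained the lowest, at 2.37 ± 0.384 CPM per kb. The 3 genes that rose most, *Irak3*, *Map3k8* and *Irak2*, were also the 3 with the lowest levels in vehicle-treated cells. A fold change is itself relative to the vehicle level, so these orders are not independent.

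The make-up of the IRAK transcripts shifted accordingly. The summed level of the 4 IRAK genes was 24.0 ± 0.534 CPM per kb with vehicle and 34.1 ± 0.729 CPM per kb with IL-1β (SD, n = 4). *Irak1* held 74.2% ± 1.58 of this sum with vehicle and 58.7% ± 1.18 with IL-1β. *Irak3* held 7.61% ± 0.294 with vehicle (7.36 to 8.04%) and 25.5% ± 1.87 with IL-1β (23.7 to 27.7%). *Irak4* held 12.7% ± 0.719 and 8.81% ± 0.481, and *Irak2* held 5.53% ± 0.592 and 6.96% ± 1.15, respectively. *Irak3* was therefore above *Irak4* in every IL-1β sample and below it in every vehicle sample. The shares are of transcripts and say nothing of the proteins.

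**Figure D3:**
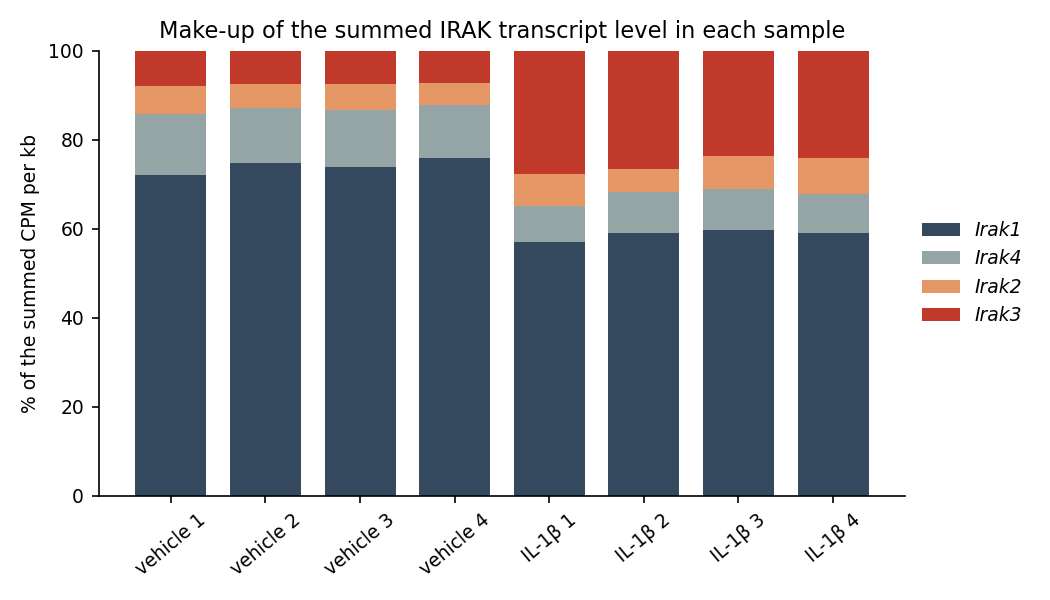
Share of each IRAK gene in the summed IRAK level (vertical axis, % of the CPM per kb of the 4 genes) in each of the 4 vehicle and 4 IL-1β samples. The red part, *Irak3*, takes 7.36 to 8.04% of the vehicle bars and 23.7 to 27.7% of the IL-1β bars.

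The balance between related genes was also compared as the log2 ratio of their counts within a sample, which does not depend on the scaling between samples. In total, 5 ratios were computed, by a two-sided exact permutation test, whose p cannot go below 0.0286 in this design. The log2 ratio of *Irak3* to *Irak1* rose from -3.64 ± 0.0843 to -1.56 ± 0.131 (SD, n = 4), a difference of 2.08 (SE 0.0779, exact p = 0.0286, Benjamini-Hochberg adjusted over the 5 ratios 0.0476). That of *Map3k8* to *Map3k7* rose from -3.25 ± 0.0972 to -1.92 ± 0.0667, a difference of 1.32 (SE 0.0589, exact p = 0.0286, adjusted 0.0476). *Irak2* rose relative to *Irak1* by 0.66 (SE 0.159, exact p = 0.0286, adjusted 0.0476). In these 3 ratios the groups did not overlap, and each had the lowest p possible. Their adjusted 0.0476 depends on 3 of the 5 ratios sharing that p, and the pairs were chosen with earlier results known. *Irak4* relative to *Irak1* had a difference of -0.19 (SE 0.0625, exact p = 0.0571, adjusted 0.0714), and the groups overlapped slightly. *Tab2* relative to *Tab1* had a difference of 0.03 (SE 0.048, exact p = 0.629), less than the spread between samples.

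**Figure D4:**
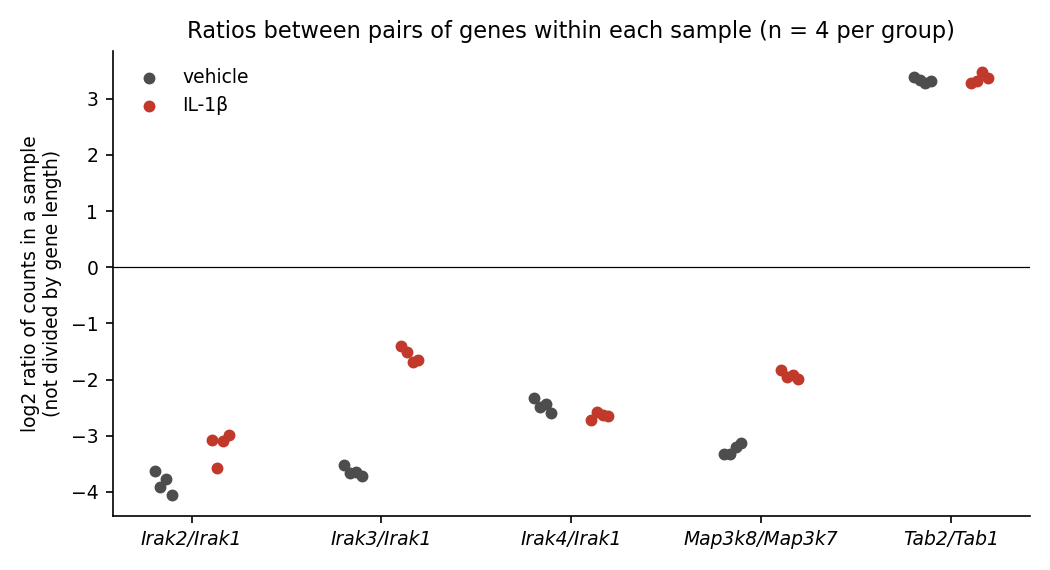
Log2 ratio of the counts of 2 genes in a sample (vertical axis, not divided by gene length) for 5 pairs, with 4 vehicle (grey) and 4 IL-1β (red) samples each. *Irak3*/*Irak1* lies between -3.72 and -3.52 with vehicle and between -1.69 and -1.40 with IL-1β, while the groups of *Tab2*/*Tab1* overlap.

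The promoters were searched for motifs of transcription factors that IL-1β activates. RefSeq gave 11 promoter windows, 250 bases before to 50 after a start site, for 8 of the 10 genes (GRCm38.p6). *Tab1* and *Map3k8* had none in the table. The NF-κB consensus, of 10 bases and searched on both strands, was present in 3 of the 11 windows (27.3%), against 8.46% of all 32851 windows. The 3 windows belong to 2 of the 8 genes, since both windows of *Irak1* overlap and hold the same motif. The matches are shown because they are all that the search found in these genes, with the motif in capitals and the strand of the gene.
*Map3k7*, chr4:31964005-31964034, plus strand: ccccgggtcaGGAAATTCCCcgctcgggtc
*Irak1*, chrX:74023920-74023949, minus strand: agggcggcgcGGGACGCCCCcgtgtggcgg

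The *Map3k7* motif begins 92 bases before the start site, and the *Irak1* motif begins 18 or 21 bases before it, depending on which of its start sites is used. *Map3k7* had a log2 fold change of 0.01 and *Irak1* one of 0.17, and the windows of the other 6 genes held no match. *Map3k8* had no window to search. The AP-1 motif TGANTCA was in no window of the 8 genes, against 7.81% of all windows. A window of 300 bases holds a small part of the regulatory sequence of a gene, and a missing match says nothing about a factor.

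Other genes of the pathway were described from 8 lists with 58 genes, of which 50 were tested. At an adjusted p under 0.05 (edgeR), 18 were higher and 5 were lower after IL-1β. The share called in either direction was 46.0%, against 40.2% of all genes tested. By direction, rises outnumbered falls among these genes, whereas 20.4% of all genes tested were higher and 19.8% lower. At the DEG threshold, 5 of the 50 were higher and 0 lower, against 2.86% and 2.35% of all genes tested. Both counts of rises include *Peli3*, which passed the CPM filter mainly through its IL-1β samples. Among the 50 genes, the median log2 fold change was 0.05. At the receptor, *Il1r1*, the signalling receptor of IL-1, did not pass the test, with vehicle and IL-1β means of 35.9 ± 0.965 and 34.1 ± 2.29 CPM (log2 fold change -0.08, adjusted p = 0.262). Its co-receptor *Il1rap* rose from 5.19 ± 0.78 to 11.6 ± 0.674 CPM (log2 fold change 1.15, SE 0.111, adjusted p = 9.76e-10). The decoy receptor *Il1r2*, the antagonist *Il1rn* and the inhibitory receptor *Sigirr* were not tested, with at most 1, 4 and 3 reads in a sample. Among the other adaptors with a TIR domain, 1 of 3 tested rose, *Ticam1*, the adaptor of TLR3 (log2 fold change 0.35, adjusted p = 0.00222).

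At the ubiquitin step between IRAK1 and TAK1, 2 of 10 genes rose and 3 fell, against 20.4% and 19.8% of all genes tested. *Peli3*, an E3 ligase of the Pellino family that binds IRAK proteins, rose from 0.81 ± 0.177 to 2.89 ± 0.253 CPM (log2 fold change 1.84, SE 0.221, adjusted p = 5.8e-08), and *Ecsit*, an adaptor of TRAF6, fell by 0.35 on the log2 scale (adjusted p = 8.26e-05). The vehicle mean of *Peli3* lay under 1 CPM, so that it passed the CPM filter mainly through its IL-1β samples. With CPM over 1 asked of all 8 samples, *Peli3* was not tested, and 4 genes of this list were called. *Traf6* itself did not pass the test, with vehicle and IL-1β means of 24.6 ± 0.887 and 26.5 ± 1.17 CPM (log2 fold change 0.11, SE 0.0567, adjusted p = 0.142). Of the 3 genes of the IKK complex, which TAK1 activates, *Ikbkg* rose (0.43, adjusted p = 1.01e-09) and *Chuk* fell (-0.23, adjusted p = 3.75e-05). Among the other partners of TAK1 and TPL2, 1 of 3 rose, *Nfkb1*, whose precursor protein holds TPL2 in check, from 80.2 ± 1.52 to 148 ± 2.41 CPM (log2 fold change 0.89, SE 0.0324, adjusted p = 2.82e-19). These adjusted p-values are from edgeR.

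*Map3k8* was also set beside the other kinases of its class. Of 14 other MAP3K genes tested, 4 rose and 1 fell, with a median log2 fold change of 0.04. The share called was thus 35.7%, under the 40.2% of all genes tested. The largest rise was that of *Map3k5*, which encodes ASK1, from 29.8 ± 2.20 to 64.1 ± 2.57 CPM (log2 fold change 1.10, SE 0.0491, adjusted p = 3.42e-17 from edgeR), followed by *Map3k6* (0.30). With DESeq2, without a filter on low counts, without IL-1β replicate 4, or without vehicle replicate 2, 3 or 4, 3 genes of this list were called. With 1 RUVs factor or without vehicle replicate 1, 6 were called. Further down, 4 of 7 MAP2K genes rose and 0 fell, against 20.4% and 19.8% of all genes tested. The largest rises were those of *Map2k1* (0.41) and *Map2k2* (0.24), which encode the kinases of ERK that TPL2 acts on. Without IL-1β replicate 3 or without vehicle replicate 3, 2 of the 7 were called.

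Among deubiquitinases and other inhibitors, 4 of 8 genes tested rose and 0 fell, against 20.4% and 19.8% of all genes tested. *Zc3h12a*, which encodes a ribonuclease that degrades cytokine transcripts, rose from 5.05 ± 0.718 to 103 ± 2.82 CPM (log2 fold change 4.34, SE 0.0621, adjusted p = 5.05e-29 from edgeR). *Tnfaip3*, which encodes the ubiquitin-editing enzyme A20, rose by 1.42 on the log2 scale (adjusted p = 1.27e-10).

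**Figure D5:**
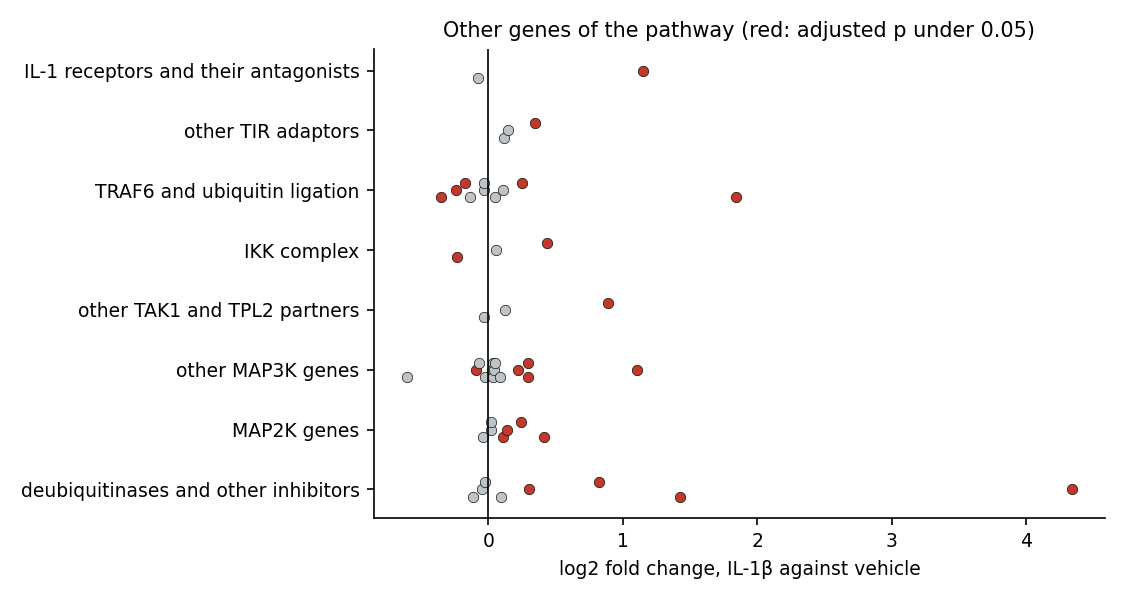
Log2 fold change of IL-1β against vehicle (horizontal axis) for the 50 tested genes of 8 lists of the pathway, each point a gene and red where the adjusted p was under 0.05. Most genes lie near 0, and *Zc3h12a*, *Peli3* and *Tnfaip3* lie farthest to the right, at 4.34, 1.84 and 1.42. *Peli3* passed the CPM filter mainly through its IL-1β samples.

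The genes most like *Irak3* in pattern, by Pearson's r of log2(CPM + 1) over the 8 samples, were *Sema3c*, *Saa1*, *Mmp3*, *Cxcl5* and *Slc7a2*, with r from 0.999 to 1.00. In all, 987 genes had an r above 0.95 with *Irak3*, since the samples fall into 2 groups and any gene with a large rise follows the same split. For *Map3k7*, which had the smallest fitted change, the genes most like it were *Zfp341*, *Clk3*, *Yif1b*, *B230319C09Rik* and *Plcd3*, with r from 0.909 to 0.946, and 0 genes exceeded 0.95. These correlations describe the 8 samples and are given without a test.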

How the data were processed

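Per the labels and the methods, the authors used cutadapt for trimming, STAR for alignment (mm10, GENCODE vM20) and featureCounts for counting. The deposited values are whole-number counts per gene symbol, with a deposited column of gene lengths in bases. The methods also name RUVseq for batches, and whether it had been applied to these counts is not stated. Total counts were 10992355 to 17456063 per sample, at which 3 counts are 0.172 to 0.273 CPM, for counting error only. All 8 count columns were used.

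Counts were normalized by TMM and tested across all genes with edgeR 4.0.16 (limma 3.58.1, R 4.3.3), treatment as the only term, over genes past the CPM filter given above. The methods name DESeq2, which served as an alternative (DESeq2 1.42.0), beside other scalings and filters, the replicate number as a block, 1 RUVs factor, and each sample left out. The code was tested on simulated data. All 10 symbols matched 1 gene of GENCODE vM21 (GRCm38) with the exon length listed in the file. Ratios used counts plus 0.5. Other steps ran in Python 3.11.15 (scipy 1.17.1).

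The 10 genes, the lists and the tests were chosen with earlier results of these data known. The genes named are all 10 members, the up to 2 called genes per list with the largest change, the 5 genes most like the member with the largest and the smallest change, and cell type markers. *Il1r1*, *Traf6*, the untested receptor genes and the overlapping genes were added for context.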

Additional observations from a re-analysis of the deposited data

Results flagged for a closer look

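The other 3 IL-1β samples had 66.3 to 67.2 CPM of *Myd88*, whereas replicate 4 reached 73.3 CPM, a gap beyond the 95% critical value of Dixon's ratio for 4 samples. In all, 22 groups of 4 values were compared (the 10 genes and the total counts, in both treatments), of which 1 was beyond this value. Chance gives about 1 in 20, or 1.1 here. Without this sample, the log2 fold change of *Myd88* was 0.09 (adjusted p = 0.135 from edgeR).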

How the results depend on the processing

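Over 15 alternatives, 4 or 5 of the 10 genes passed the adjusted p and 2 passed the DEG threshold, and 19 to 24 of the pathway genes were called against 23. Without the filter on low counts, 1206 genes passed the DEG threshold, against 751, and 17.9% of 32379 genes passed the adjusted p, against 40.2% of 14404, while 5 of the 10 genes were called in both. *Irak1*, *Irak2*, *Irak3* and *Map3k8* kept direction and call in all 15, with log2 fold changes of 0.14 to 0.19, 0.78 to 0.95, 2.22 to 2.28 and 1.29 to 1.39. With the replicate number as a block, 5 and 2 of the 10 were called, and the log2 fold change of *Irak3* was 2.25. Deviations of same-numbered samples had r of -0.0653 to 0.0321 across genes, and 0 of 4 IL-1β samples correlated best with its own number. These values cannot decide whether same-numbered samples share an origin. The labels do not say, and a correction applied before deposition could have removed shared deviations. The sign changed, near 0, for *Irak4* without IL-1β replicate 1 (0.029), without IL-1β replicate 4 (0.0013) or without vehicle replicate 1 (0.0077), in a range of -0.044 to 0.029, and for *Map3k7* without vehicle replicate 1 (-0.0024) or 2 (-0.0094), in a range of -0.0094 to 0.025.

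With 4 samples against 3, the exact test cannot go below 0.0571, so that no ratio could pass with a sample left out. The differences then lay between 0.59 and 0.79 for *Irak2*/*Irak1*, 2.02 and 2.12 for *Irak3*/*Irak1*, 1.29 and 1.36 for *Map3k8*/*Map3k7*, and -0.0089 and 0.055 for *Tab2*/*Tab1*. With the replicate number as a block, the sign-flip test over 4 pairs cannot go below 0.125, and the differences were 0.66, 2.08 and 1.32 for the first 3 of these ratios (adjusted 0.156). Without division by gene length, *Irak3* held 21.1% of the IRAK sum with IL-1β and 6.01% with vehicle, *Irak4* held 9.93% and 13.7%, and *Irak1* held 62.1% with IL-1β.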
